A study of Mus musculus with 19 samples.

Results

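Mice that carried OMPCre without the floxed Smad4 alleles were compared with Smad4flox/flox mice that carried no Cre, in mRNA-seq of whole vomeronasal organs (VNOs). These were 6 of the 19 libraries of the series, 3 labelled OMPCre heterozygous (OMPCre+/-) and 3 that the labels call wild type and the study's methods describe as Smad4flox/flox. All were labelled as female mice at postnatal day 21, and the label's cell type, mature apical and basal VSNs, names the cells in which OMPCre acts while the RNA is from the whole organ, and both groups were control groups of a Smad4 deletion experiment. Another group of the same line, OMPCre+/- with Smad4flox/flox (cKO, 3 libraries), carries both alleles and served as a reference, and the AP-2eCre line offered an independent pair of the same kind, 3 AP-2eCre+/- and 3 Smad4flox/flox libraries, none of them shared with the OMP line. The OMPCre+/- mice had the Cre allele and no floxed Smad4 label, and the Smad4flox/flox mice had the floxed alleles and no Cre, so the Cre allele, the floxed alleles and whatever else differed between the stocks cannot be told apart from the 6 libraries alone. Strain backgrounds were not stated in the labels.

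Omp encodes the olfactory marker protein, a small cytoplasmic protein of mature chemosensory neurons, which lie in the main olfactory epithelium and, as vomeronasal sensory neurons (VSNs), in the VNO. In OMPCre mice the recombinase is expressed from the Omp locus, so carriers keep a single intact Omp allele. Apical VSNs express V1r receptors with the G protein Gαi2 and basal VSNs express V2r receptors with Gαo, and both use the channel Trpc2. Neurons of the main olfactory epithelium use odorant receptors, the G protein Gαolf (Gnal), adenylyl cyclase 3 (Adcy3) and a cyclic nucleotide-gated channel (Cnga2, Cnga4 and Cngb1).

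Total estimated counts lay between 48720051 and 75583450 in the Smad4flox/flox libraries and between 60303649 and 64481429 in the OMPCre+/- libraries. Levels below are CPM, counts scaled to library size after trimmed-mean normalization, and differences are OMPCre+/- minus Smad4flox/flox on the log2 scale. The tissue label held for all 6 libraries, with Trpc2 between 85.1 and 139 CPM, Gnai2 between 342 and 381 CPM and Gnao1 between 192 and 246 CPM. In whole tissue, fewer cells of a type and less RNA per cell cannot be told apart. One Smad4flox/flox library, replicate 3, carried skeletal muscle RNA, with 209 CPM summed over 10 muscle genes against 3.66 to 11.8 CPM in the other 5.

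Of 18623 genes tested, 14 (0.0752%) passed an adjusted p of 0.05 in edgeR's quasi-likelihood test. The level rose in OMPCre+/- for 9 of them (0.0483% of the genes tested) and fell for 5 (0.0268%). DESeq2 called 158 genes (0.792% of 19952), 93 higher (0.466%) and 65 lower (0.326%). At an unadjusted p under 0.05 there were 1088 genes (5.84%), 468 higher and 620 lower, and in 2101 genes (11.3%) the 3 libraries of one group lay wholly outside the range of the other. The median difference over all genes was -0.01.

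Omp itself was lower in the carriers. Its transcript is a single exon of 2144 bases on chromosome 7 (GRCm38 chr7:98143359-98145502, minus strand), of which 489 bases, chr7:98144930-98145418, encode the protein. The start of that coding sequence in the GENCODE transcript, shown because the Cre allele and the intact allele part at this gene, has its initiation codon in capitals.

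Omp, first 120 coding bases: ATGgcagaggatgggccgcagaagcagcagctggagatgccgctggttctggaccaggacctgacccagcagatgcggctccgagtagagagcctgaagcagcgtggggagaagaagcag

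The files list Omp with a length of 2144 bases, that of the whole transcript, 22.8% of which is coding, although the study's methods name a coding-sequence assembly. Which part of it the Cre allele lacks is not given in the sources used here. Omp read 414, 305 and 478 CPM in the Smad4flox/flox libraries and 248, 236 and 225 CPM in OMPCre+/-. It read 256, 238 and 286 CPM in the cKO. The 3 carriers lay below the 3 flox libraries without overlap, and the cKO, which holds the same Cre allele, also lay below the flox libraries. The carrier mean was 59.2% of the flox mean (236 ± 11.7 against 399 ± 87.4 CPM, SD, n = 3 each). On the log2 scale the difference was -0.76 (SE 0.16), with an unadjusted p of 0.00096 and an adjusted p of 0.35 in edgeR, so it missed the threshold there and passed it in DESeq2 (adjusted p 0.00088). The exact permutation test over the 20 splits gave a two-sided p of 0.1, the smallest this design allows. In the AP-2e line, whose Cre is at another gene, Omp read 395, 441 and 473 CPM in Smad4flox/flox and 292, 434 and 446 CPM in AP-2eCre+/-, and these groups overlapped. The difference between the lines had an adjusted p of 0.78 in edgeR and was not shown.

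**Figure D1:**
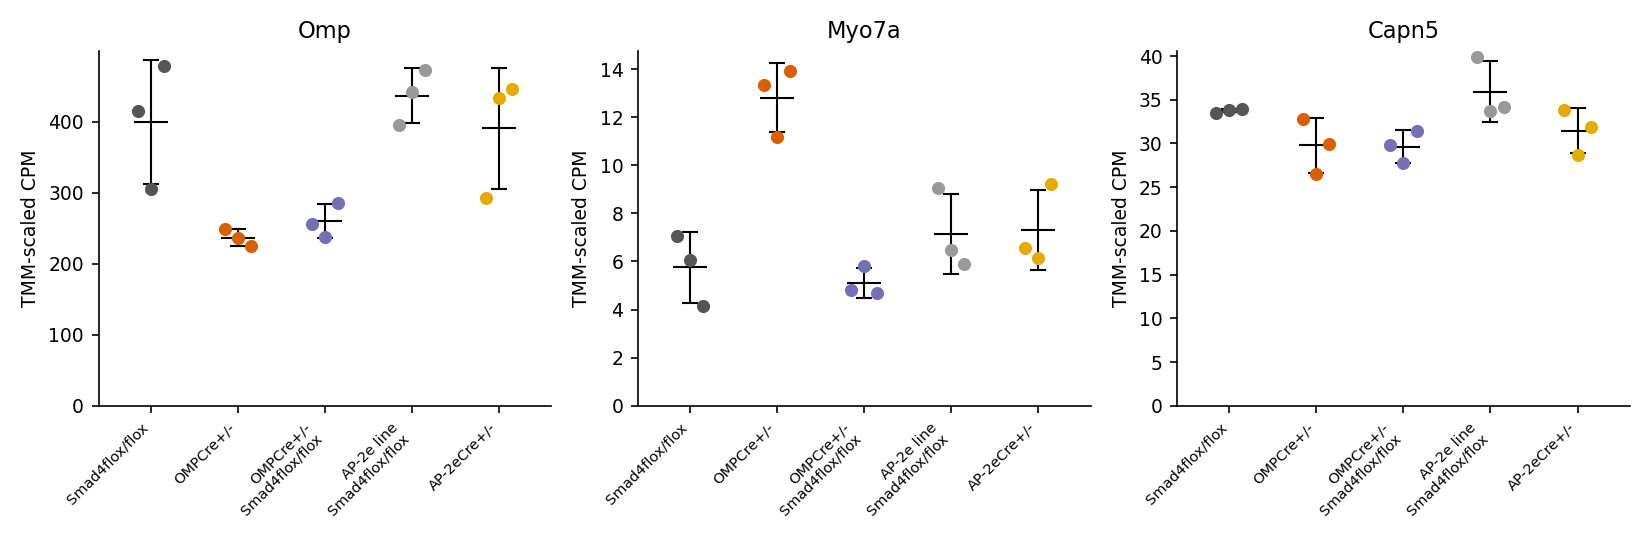
Levels (CPM, linear axis from 0) of Omp and its neighbours Myo7a and Capn5 in each library of the OMP line (flox, OMPCre+/-, cKO) and of the AP-2e flox and AP-2eCre+/- groups, with points for libraries and bars for mean and SD. The OMPCre+/- libraries read 225 to 248 CPM for Omp, below all 3 flox libraries, and 11.2 to 13.9 CPM for Myo7a, above all the others.

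Omp lies within the span of Capn5, a calpain protease gene on the same strand, and next to Myo7a, which encodes an unconventional myosin of stereocilia and microvilli. Myo7a read 7.08, 6.06 and 4.16 CPM in Smad4flox/flox and 13.3, 11.2 and 13.9 CPM in OMPCre+/-. It read 4.81, 5.82 and 4.69 CPM in the cKO. The 3 heterozygotes stood above both other groups. The difference was 1.15 (SE 0.21, unadjusted p 0.00037, adjusted p 0.22 in edgeR and 0.00018 in DESeq2). Capn5 read 26.5 to 32.8 CPM in OMPCre+/- against 33.5 to 33.9 CPM in Smad4flox/flox, a difference of -0.18 (SE 0.09, adjusted p 0.83 in edgeR). The other 4 of the 6 tested genes nearest to Omp (B3gnt6, Acer3, Tsku and Gucy2d) differed by between -0.41 and 0.04, the lowest unadjusted p being 0.19.

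Smad4, whose floxed alleles were present in the flox group and not in the heterozygotes, read 79.7, 73.4 and 65.4 CPM in Smad4flox/flox and 83.9, 75.8 and 77.6 CPM in OMPCre+/-. The groups overlapped, and the difference was 0.12 (SE 0.10, adjusted p 0.93 in edgeR). The 6 tested genes nearest to Smad4 (Mex3c, Elac1, Me2, Mapk4, Ska1 and Cxxc1) differed by between -0.78 and 0.32, the lowest unadjusted p being 0.067.

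Most genes past the threshold were close to absent in one group. Pseudogenes made up 8 of the 14 (57.1%) and 7.23% of the genes tested. A processed pseudogene is a copy of an mRNA inserted in the genome, and its reads are told from those of the parent gene only by the bases that differ. Aligned stretches of 4 of these pseudogenes with the coding sequence of the nearest named quantified transcript are given here, since those bases are what the count of each pseudogene rests on. Capitals mark the bases that differ within each pair, and the sequences are the GENCODE transcripts, 5′ to 3′.

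Rps15a-ps8: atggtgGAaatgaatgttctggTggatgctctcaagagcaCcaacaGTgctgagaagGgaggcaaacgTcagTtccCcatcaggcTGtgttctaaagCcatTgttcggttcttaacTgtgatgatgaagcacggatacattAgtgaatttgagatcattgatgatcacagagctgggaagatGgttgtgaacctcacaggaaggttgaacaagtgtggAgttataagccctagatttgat
Rps15a: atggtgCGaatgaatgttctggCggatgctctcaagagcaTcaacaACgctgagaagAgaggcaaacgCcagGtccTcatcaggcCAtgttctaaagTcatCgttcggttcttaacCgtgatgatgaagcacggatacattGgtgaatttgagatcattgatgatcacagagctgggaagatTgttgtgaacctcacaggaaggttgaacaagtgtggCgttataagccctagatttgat
Gm44911: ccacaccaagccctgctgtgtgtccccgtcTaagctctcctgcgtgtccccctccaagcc
Cplane1: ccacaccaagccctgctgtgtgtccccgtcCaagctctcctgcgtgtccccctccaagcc
Gm14121: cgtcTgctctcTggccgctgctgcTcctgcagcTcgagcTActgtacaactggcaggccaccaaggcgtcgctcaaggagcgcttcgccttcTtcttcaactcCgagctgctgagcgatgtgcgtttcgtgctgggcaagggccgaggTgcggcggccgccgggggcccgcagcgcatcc
Btbd1: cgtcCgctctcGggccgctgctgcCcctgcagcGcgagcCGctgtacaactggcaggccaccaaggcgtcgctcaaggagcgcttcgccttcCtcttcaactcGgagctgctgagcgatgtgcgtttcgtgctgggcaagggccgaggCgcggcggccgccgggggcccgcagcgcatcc
Gm5802: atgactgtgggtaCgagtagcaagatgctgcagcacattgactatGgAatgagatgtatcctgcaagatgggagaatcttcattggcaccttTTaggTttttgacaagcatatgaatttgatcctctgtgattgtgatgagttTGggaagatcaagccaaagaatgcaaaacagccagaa
Snrpn: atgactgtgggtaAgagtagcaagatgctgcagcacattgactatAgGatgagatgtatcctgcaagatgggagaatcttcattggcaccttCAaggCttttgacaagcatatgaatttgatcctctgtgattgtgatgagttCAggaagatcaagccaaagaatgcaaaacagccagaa

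The Rps15a-ps8 stretch differs from Rps15a at 18 of 240 bases, Gm14121 from Btbd1 at 9 of 180 and Gm5802 from Snrpn at 8 of 180. Gm44911 differs from Cplane1 at 1 base over all 1062 bases of its transcript, so its count rests on very little sequence.

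Rps15a-ps8 (chr4:53791070-53791456, minus strand), a copy of the gene for a small ribosomal subunit protein, had 642, 899 and 615 estimated counts in Smad4flox/flox and 1, 5 and 3 counts in OMPCre+/-. The cKO had 824, 487 and 309. The pseudogene was thus near 0 in the heterozygotes and present in both groups with floxed Smad4. The difference was -7.86 (SE 0.51, adjusted p 0.0021 in edgeR). The parent Rps15a did not follow, with 90.6, 92.3 and 46.1 CPM against 84.7, 87.8 and 40.6 CPM. In the AP-2e line the pseudogene had 231 to 658 counts in AP-2eCre+/- and 293 to 915 in Smad4flox/flox, and the difference between the lines, -7.07, passed the threshold (adjusted p 0.00052 in edgeR).

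Gm10167 (chr5:148182899-148184377), a processed pseudogene, had 122, 246 and 215 counts in Smad4flox/flox and 0, 2 and 2 in OMPCre+/-. It had 133 to 304 counts in the cKO. It fell by 7.10 on the log2 scale (SE 0.75, adjusted p 0.017 in edgeR), and its difference from the AP-2e line, -6.85, also passed (adjusted p 0.0076). Gm44911 (chr8:7040157-7041218) had 93, 121 and 115 counts in Smad4flox/flox and none in any OMPCre+/- library, which is at least 37.5-fold lower against a floor of 3 counts per library. The cKO had 86 to 169 counts, and 1 AP-2eCre+/- library also had none.

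2 pseudogenes were on in the heterozygotes and off in the flox group, with the cKO at the level of the heterozygotes. Gm14121 (chr2:150499466-150500845) had 0, 2 and 0 counts in Smad4flox/flox, 134, 185 and 293 in OMPCre+/- and 263, 259 and 303 in the cKO. The ratio of OMPCre+/- to Smad4flox/flox was 302, with an exact 95% counting interval from 83.2 to 2497 (adjusted p 0.0099 in edgeR). Gm5802 (chr14:62540493-62541193) had 1, 0 and 0 counts, then 72, 69 and 65 counts and 52, 67 and 80 counts in the same order of groups. Its ratio was 203, with an interval from 36.1 to 8062 (adjusted p 0.02 in edgeR). In the 6 AP-2e-line libraries Gm14121 had 0 to 3 counts and Gm5802 none.

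The other pseudogenes that rose were on only in the heterozygotes among the 9 libraries, or nearly so. Gm14448 (chrX:5885743-5885952) had 561, 715 and 829 counts in OMPCre+/-, 0, 2 and 5 in Smad4flox/flox and none in the cKO (adjusted p 0.036 in edgeR). It had 489, 340 and 328 counts in AP-2eCre+/- and none in the matching Smad4flox/flox libraries (adjusted p 0.02). It was the single gene called in both lines, 7.14% of the 14 called here and 11.1% of the 9 called in the AP-2e line. AC129179.3 on chromosome 18, which matches the same Hmgb1-like copies, had 567, 299 and 575 counts in OMPCre+/- and none in Smad4flox/flox or the cKO, at least 154-fold higher against the floor (adjusted p 0.032 in edgeR). In AP-2eCre+/- it had 202, 388 and 535 counts, and none in the matching flox group (adjusted p 0.085). Both match Hmgb1-like pseudogenes such as Gm5518 over 204 and 251 aligned bases at 95.6% and 95.2% identity, so reads could be divided among them. Hmgb1 itself read 145, 167 and 133 CPM in Smad4flox/flox and 147, 169 and 136 CPM in OMPCre+/-.

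Gm1966 (chr7:106596743-106604035), a pseudogene of the very large interferon-inducible GTPase family, had 12, 15 and 13 counts in Smad4flox/flox, 162, 143 and 349 in OMPCre+/- and 7 to 9 in the cKO. The difference was 3.96 (SE 0.42, adjusted p 0.017 in edgeR).

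6 protein-coding genes passed the threshold. Gdpd3, which encodes a glycerophosphodiester phosphodiesterase of lysophospholipid metabolism, read 6.79, 7.83 and 10.3 CPM in Smad4flox/flox and 0.767, 0.743 and 0.527 CPM in OMPCre+/-. It read 3.55 to 6.67 CPM in the cKO. The heterozygotes stood far below all 6 other libraries of the line, at 8.19% of the flox mean (-3.61, SE 0.32, adjusted p 0.0089 in edgeR). Wdfy1, an endosomal adaptor with WD-repeat and FYVE domains, read 108, 111 and 78.4 CPM in Smad4flox/flox and 30.4, 26.6 and 34.7 CPM in OMPCre+/-. It read 127 to 139 CPM in the cKO. The difference was -1.69 (SE 0.15, adjusted p 0.0089 in edgeR). Wdfy1 was also lower without overlap in AP-2eCre+/-, at 62.5 to 77.3 CPM against 108 to 124 CPM, where it missed the threshold (-0.73, adjusted p 0.096), and the difference between the lines had an adjusted p of 0.35.

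Trim12a (chr7:104299894-104315466), a member of the TRIM family of ubiquitin ligases related to the retroviral restriction factor Trim5, read 0.506, 0.799 and 0.243 CPM in Smad4flox/flox and 7.95, 7.56 and 7.61 CPM in OMPCre+/-. It read 0.113 to 0.291 CPM in the cKO. The difference was 3.89 (SE 0.49, adjusted p 0.036 in edgeR). Both levels were also seen in the AP-2e line, where AP-2eCre+/- read 5.97 to 8.42 CPM and the flox libraries 8.54, 0.133 and 0.411 CPM. Trim12a is 96.95% identical to Trim5 over 952 bases, and Trim5 differed by 2.45 (adjusted p 0.6 in edgeR and 0.016 in DESeq2). It is 96.5% identical to Trim12c over 980 bases, and Trim12c differed by -0.26, at 29.8, 38.7 and 30.1 CPM against 26.4, 25.5 and 30.3 CPM.

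Tmem254c, a membrane protein gene on chromosome 14, rose from 41.7, 39.1 and 43.7 CPM to 73.7, 84.3 and 71.4 CPM (0.88, SE 0.11, adjusted p 0.036 in edgeR), and the cKO read 40.5 to 51.5 CPM. It lost its call in each of the 6 fits that left out 1 library (adjusted p 0.079 to 0.197). Its transcript is identical over 1211 bases to Tmem254a and Tmem254b, so the division of reads among the 3 is uncertain. These copies differed in the same direction and missed the threshold, Tmem254a by 1.41 (adjusted p 0.51 in edgeR) and Tmem254b by 1.03 (adjusted p 0.4).

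2 odorant receptor genes passed the threshold. Olfr536 (chr7:140500849-140507396) read 0.904, 0.729 and 0.691 CPM in Smad4flox/flox and 3.29, 7 and 6.57 CPM in OMPCre+/- (2.85, SE 0.35, adjusted p 0.036 in edgeR). Olfr741 on chromosome 14 read 0.797, 0.898 and 0.56 CPM and then 3.37, 3.3 and 3.5 CPM (2.17, SE 0.28, adjusted p 0.047). Over the 6 fits that left out 1 library Olfr536 kept its call in 1 (adjusted p 0.037 to 0.178) and Olfr741 in none (0.096 to 0.197). With length-scaled TPM both lost their call in edgeR, Olfr536 at 3.45 (adjusted p 0.74) and Olfr741 at 3.24 (adjusted p 0.11). Both were near the flox level in the cKO, at 0.855 to 1.18 and 0.968 to 1.29 CPM. Olfr536 was also higher without overlap in the AP-2e line, at 2.78 to 4.67 CPM in AP-2eCre+/- against 0.53 to 1.19 CPM (2.10, adjusted p 0.19).

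**Figure D2:**
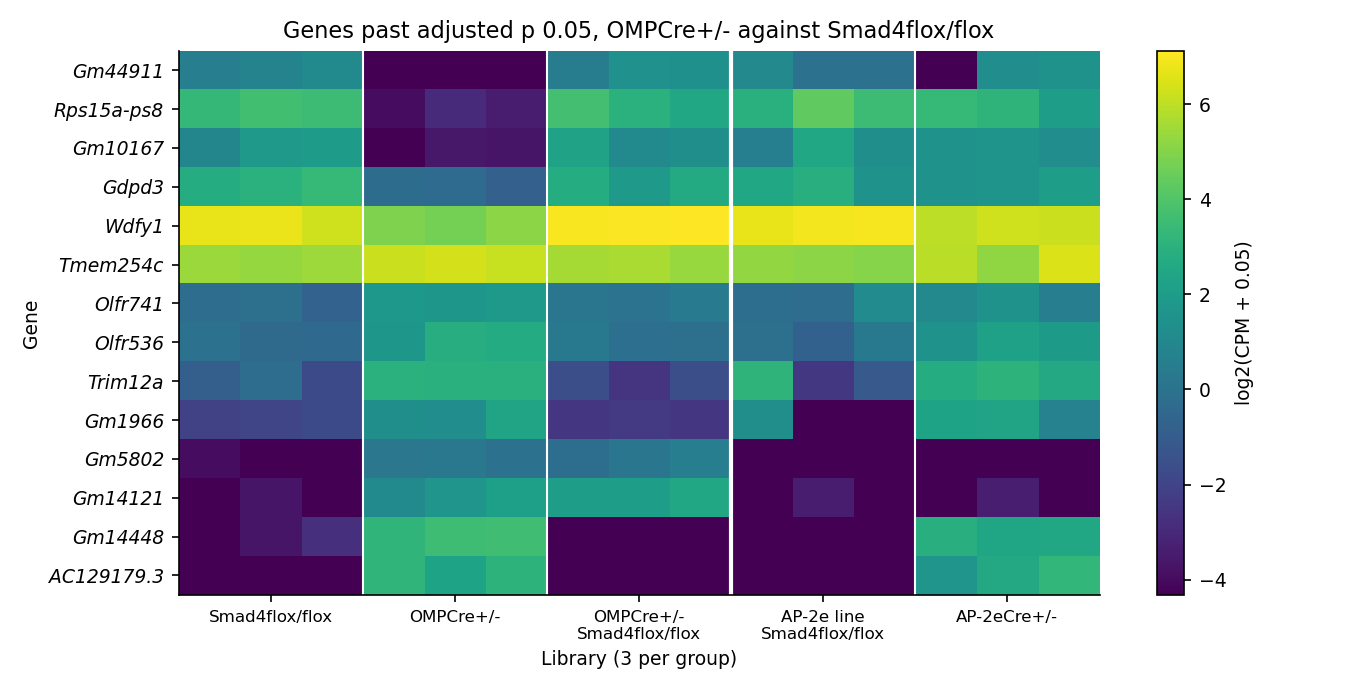
Levels as log2(CPM + 0.05) of the 14 genes past the adjusted threshold (rows) in the 3 libraries of each of 5 groups (columns, thick line between the lines). The cKO columns resemble the flox columns for 12 genes and the OMPCre+/- columns for Gm14121 and Gm5802, and Gm14448 and AC129179.3 are on only in the heterozygotes of both lines, apart from 7 counts of Gm14448 in flox libraries.

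As a description with no test, since the 14 genes were chosen for the difference between these same groups, all 3 cKO libraries lay nearer the Smad4flox/flox mean for 12 genes and nearer the OMPCre+/- mean for 2. Over the 6 fits that left out 1 library, Rps15a-ps8, Gdpd3, Wdfy1 and Gm14121 kept their call in all 6 and Gm44911 in 5. Gm10167 and Gm1966 kept it in 3, Gm5802, AC129179.3 and Gm14448 in 2 and Trim12a in 1 (adjusted p up to 0.22 in edgeR). In the fit of the 6 OMPCre+/- and flox libraries alone 5 of the 14 stayed called, and Gm14121 did not (adjusted p 0.067 in edgeR). The AP-2e comparison called 9 of 18495 genes (0.0487%), 1 higher (0.00541%) and 8 lower (0.0433%), with 5.47% at an unadjusted p under 0.05. The test of the difference between the lines called 5 of 19465 genes (0.0257%), with 5.81% at an unadjusted p under 0.05.

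The 10 genes next in order of unadjusted p, with no overlap and at least 1 CPM in the higher group, missed the adjusted threshold (adjusted p 0.056 to 0.086 in edgeR). 4 more of them were pseudogenes with lower values in OMPCre+/-. Gm3375, a Psmb5 copy, differed by -1.12, Rpl34-ps1 by -0.86 and Mrpl48-ps by -1.20, while Nutf2-ps2 had 148, 182 and 82 counts in Smad4flox/flox and none in any OMPCre+/- or cKO library. Rpl34-ps1 is 99.4% identical to Rpl34, which differed the other way, by 1.53 (adjusted p 0.81), and Nutf2-ps2 is 99.7% identical to Nutf2, so the division of reads within each pair is uncertain. Fat2, an atypical cadherin, read 42.3, 44.8 and 41.9 CPM in Smad4flox/flox and 24.6, 28.4 and 27.5 CPM in OMPCre+/-. Olfm5, an olfactomedin gene on chromosome 7, read 5.71, 5.15 and 2.89 CPM and then 37.5, 18.1 and 22 CPM (2.49, SE 0.36). Gm16867 on chromosome 14 read 0.056 to 0.196 CPM and then 7.22 to 9.11 CPM. Its difference of 6.15 became 3.82 with length-scaled TPM (adjusted p 0.66 in edgeR). The transcript is identical to Slc25a37 over 382 bases, so reads could be divided between them. Vmn2r69, a V2r receptor gene, differed by -0.93, Olfr455 by 1.72 and Ric8b by 0.58.

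Genes of the main olfactory transduction pathway, Ric8b among them, were mostly higher in the heterozygotes, although none passed the adjusted threshold in edgeR. The list of 27 tested genes held Omp, the cyclic AMP pathway and other genes. Among these others were transcriptional regulators (Ebf1 to Ebf4, Lhx2 and Ldb1), Rtp and Bex genes, Car2 and Gucy2d. Of the 27, 23 had a higher mean, 11 had an unadjusted p under 0.05 in that direction and 1, Omp, in the other. Over all genes 47% had a higher mean, and 2.51% were higher and 3.33% lower at that p. The list's median difference was 0.16, beside -0.01 over all genes.

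Cnga2, a subunit of the olfactory channel, read 14.7, 11.7 and 7.23 CPM in Smad4flox/flox and 25.6, 26.1 and 26.8 CPM in OMPCre+/-. It read 11.8, 10.3 and 13.9 CPM in the cKO. The heterozygotes lay above the 6 other libraries (1.22, SE 0.23, unadjusted p 0.00051, adjusted p 0.26 in edgeR and 0.00013 in DESeq2). Gnal, which encodes Gαolf, read 51.9, 40.5 and 25 CPM and then 89.4, 90 and 104 CPM (1.27, SE 0.25, adjusted p 0.32 in edgeR and 5.8e-05 in DESeq2). Ric8b, a chaperone and exchange factor for Gαolf, read 25.2, 24.7 and 22.1 CPM and then 34.8, 34.1 and 38.8 CPM (0.58, SE 0.09, adjusted p 0.075 in edgeR and 3.9e-05 in DESeq2). In the cKO Gnal read 34 to 48.1 CPM and Ric8b 26.1 to 27.1 CPM, both below all heterozygotes.

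Ebf4, a transcription factor of the Olf/EBF family, read 3.52 to 4.52 CPM in Smad4flox/flox and 7.56 to 9.86 CPM in OMPCre+/- (1.08, SE 0.20, adjusted p 0.23 in edgeR). Stoml3, a stomatin-domain membrane protein of olfactory cilia, averaged 32.4 ± 13.3 and 60.8 ± 2.46 CPM (SD, n = 3 each). Adcy3 read 51.7, 48.5 and 50.2 CPM and then 61.8, 66.6 and 90.7 CPM (0.54, SE 0.16, adjusted p 0.65). The difference was smaller for Cnga4, at 0.36 (SE 0.13), and for Cngb1, at 0.37 (SE 0.19, unadjusted p 0.087). Ebf1, Lhx2 and Ldb1, regulators of olfactory receptor choice, differed by 0.04, 0.01 and 0.03.

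**Figure D3:**
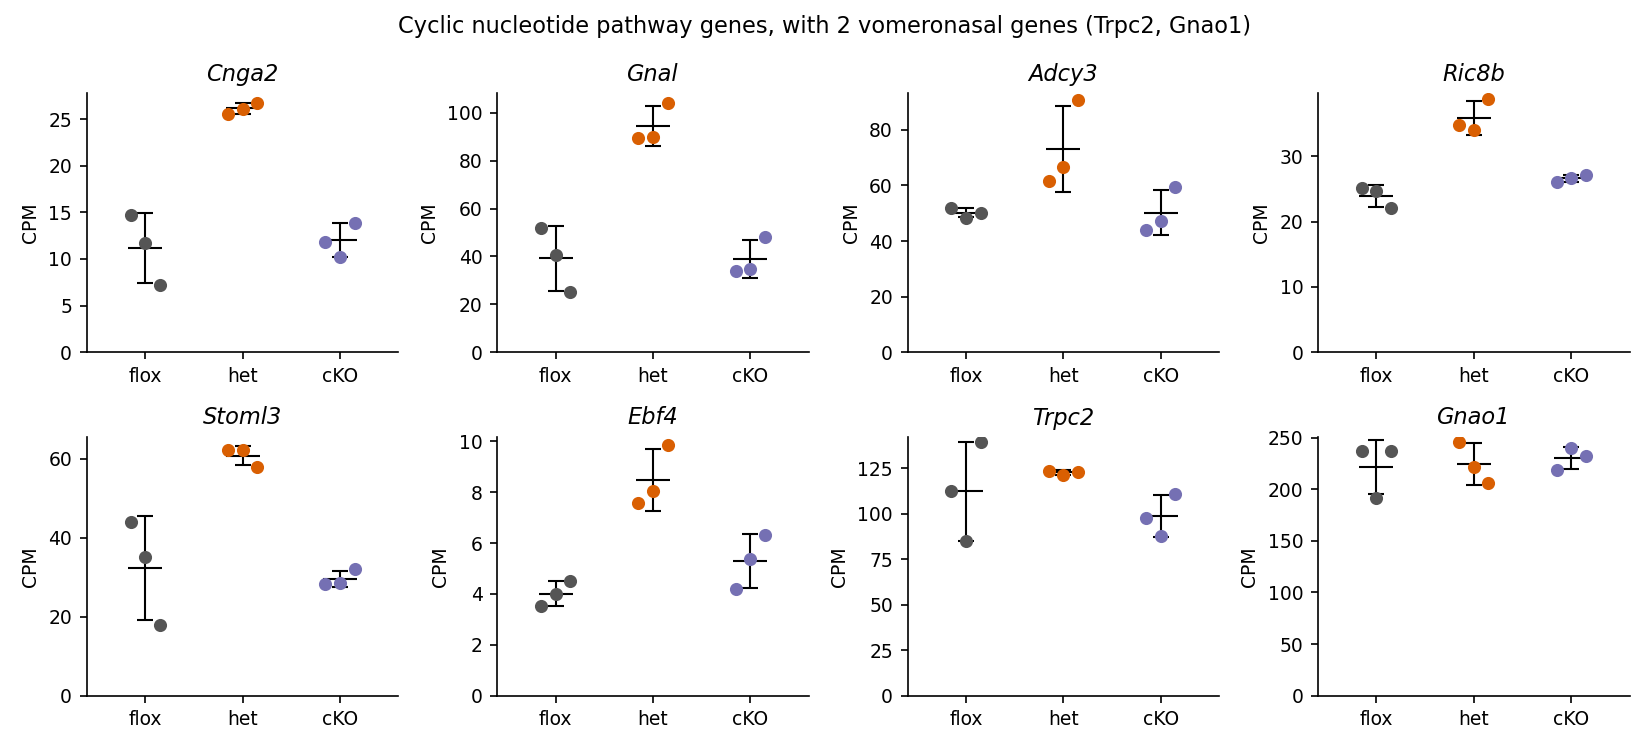
Levels (CPM, linear axes from 0) of 6 genes expressed in main olfactory neurons and of the vomeronasal genes Trpc2 and Gnao1 in the flox, OMPCre+/- (het) and cKO libraries, with points for libraries and bars for mean and SD. For Cnga2, Gnal, Adcy3, Ric8b, Stoml3 and Ebf4 the 3 heterozygotes lie above the other 6 libraries, whereas for Trpc2 and Gnao1 the groups overlap.

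Odorant receptor genes, the receptors of the same neurons, showed a higher sum in the heterozygotes. Their summed level was 565, 530 and 486 CPM in Smad4flox/flox, 679, 666 and 702 CPM in OMPCre+/- and 550, 522 and 612 CPM in the cKO, so the heterozygotes lay above both other groups and were 1.30 times the flox mean. The sum leans on few genes, since the 10 highest receptors held 43.1% of the tested receptor level in OMPCre+/-. Of 400 odorant receptor genes tested, 280 had a higher mean (70%, against 47% of all genes), and the median difference was 0.37. The expression filter can be met by 3 libraries, so receptors near the floor that were high only in the heterozygotes could enter and raise these values. Among the 171 with at least 10 counts in every library the median was 0.14, with 25 higher and 3 lower at an unadjusted p under 0.05. In 60 of the 400 the heterozygotes lay wholly above the flox libraries and in 9 wholly below (15% and 2.25%, against 5.73% and 5.55% of all genes). At an unadjusted p under 0.05, 35 were higher and 1 lower, and edgeR called 2, Olfr536 and Olfr741, against 0.0752% of all genes. DESeq2, which tested 953 of these receptors, called 13 higher and 0 lower, against 0.466% and 0.326% of all genes. One abundant receptor, Olfr124, read 41.5, 51.5 and 31.3 CPM and then 94.1, 97.2 and 134 CPM (1.39, SE 0.25, adjusted p 0.22 in edgeR). This single gene, which missed the adjusted threshold, made up a sizeable part of the rise in the sum.

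Beyond the pathway list, S100a5, a calcium-binding protein of olfactory neurons, read 14.7, 10.4 and 4.99 CPM in Smad4flox/flox and 21.8, 20.4 and 28.2 CPM in OMPCre+/-, and was named after its values were seen. Cyp2g1, a cytochrome P450 of olfactory sustentacular cells and glands, read 65, 46.2 and 26.2 CPM and then 101, 83 and 95.3 CPM (1.02, SE 0.29, adjusted p 0.61 in edgeR). Cyp2g1 was the single gene with an unadjusted p under 0.05 among 28 sustentacular and gland genes, of which 10 had a higher and 18 a lower mean, with a median of -0.14. In S100a5 and Cyp2g1, as in Cnga2, Gnal and Stoml3, the lowest flox value came from replicate 3, the library with muscle RNA. Without that library 15 of the 26 genes on the pathway list other than Omp had an unadjusted p under 0.05 and a higher value. None was lower at that p, and the median over the 26 was 0.30, against 11 genes and 0.19 with all libraries. Without flox replicate 2 there were 7 and the median was 0.11. Odorant receptor genes at an unadjusted p under 0.05 numbered 40 higher and 4 lower of 469 tested, with a median of 0.38, without flox replicate 3, and 39 and 0 of 462, with a median of 0.40, without flox replicate 2. In a fit of replicates 1 and 2 alone, whose animals' names share a form, the counts were 15 and 0 of 25 genes of the list and 28 and 3 of 430 receptor genes. Over all genes 1467 of 18735 had an unadjusted p under 0.05 in that fit, in either direction. The numbers were 1322 of 19051 without flox replicate 3 and 1119 of 19088 without flox replicate 2. How much main olfactory tissue each dissection held was not measured, and its part in the result was not tested.

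For the AP-2e line the summed odorant receptor level was 514 to 691 CPM in Smad4flox/flox and 580 to 670 CPM in AP-2eCre+/-, which overlapped. Cnga2 read 14, 20 and 21 CPM and then 26.3, 29 and 17 CPM there. The adjusted p for a difference between the lines was 0.79 for Cnga2 and 0.73 for Gnal in edgeR.

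No vomeronasal receptor gene was called in edgeR with all libraries, whereas DESeq2 called 1 V1r gene higher and 1 lower of 195, and 3 V2r genes higher and 2 lower of 121, against 0.466% and 0.326% of all genes. V1r genes summed to 1764 to 2273 CPM in Smad4flox/flox and 2107 to 2163 CPM in OMPCre+/-, and V2r genes to 3662 to 5117 and 4295 to 4470 CPM, and both pairs of ranges overlapped. Of 178 V1r genes tested 62.9% had a higher mean (47% of all genes), 10.1% lay wholly above (5.73%) and 15 were higher and 4 lower at an unadjusted p under 0.05 (8.43% and 2.25%, against 2.51% and 3.33%), with a median of 0.10. The V1r counts turned on single libraries. They were 44 and 6, with a median of 0.26, without flox replicate 3, and 9 and 7, with a median of 0.03, without flox replicate 2. Of 121 V2r genes 4 were higher and 5 lower, with a median of -0.04, and without flox replicate 3 there were 13 and 4, a median of 0.09 and 1 gene called higher. Without flox replicate 2 there were 3 and 6, with a median of -0.13. The numbered series, replicates 1 and 2 alone, gave 40 and 5 V1r genes, and 18 and 6 V2r genes with 2 called higher and a median of 0.086. Over all genes 1467 of 18735 had an unadjusted p under 0.05 in that fit, in either direction. The numbers were 1322 of 19051 without flox replicate 3 and 1119 of 19088 without flox replicate 2. With the library series as a covariate 1 V2r gene was called lower. The families hold near-identical members among which reads can be divided.

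Single V2r genes of a cluster on chromosome 7 differed in opposite directions. Vmn2r69 read 49.5, 43.1 and 57.7 CPM in Smad4flox/flox and 26.1, 25.7 and 27.3 CPM in OMPCre+/-. Its neighbour Vmn2r68 read 20.9, 10.9 and 14.7 CPM and then 6.51, 6.97 and 6.45 CPM (-1.22, SE 0.21, adjusted p 0.18 in edgeR). Vmn2r74, farther along the cluster, read 33.7, 40.4 and 50.9 CPM and then 67, 66.1 and 61.7 CPM (0.64, SE 0.15, adjusted p 0.49). DESeq2 gave these 3 genes adjusted p of 3.5e-06, 5.9e-05 and 0.012. The differences in the AP-2e line were -0.77 for Vmn2r69, -0.93 for Vmn2r68 and -0.68 for Vmn2r74 (adjusted p 0.83, 0.9 and 0.81 in edgeR). The median over the V2r genes there was -0.64. Their sums were 1979, 3582 and 3563 CPM in AP-2eCre+/-, 1 library standing far below the other two, and 3891 to 4811 CPM in that line's Smad4flox/flox libraries. Formyl peptide receptors summed to 13.1 to 15.5 CPM in Smad4flox/flox and 13 to 14.2 CPM in OMPCre+/-. H2-M genes, taken by symbol, include nonclassical MHC genes of basal VSNs but are not limited to them. They summed to 129 to 159 CPM and 104 to 137 CPM. Of 11 H2-M genes 27.3% lay wholly below (5.55% of all genes) and 2 were lower at an unadjusted p under 0.05.

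**Figure D4:**
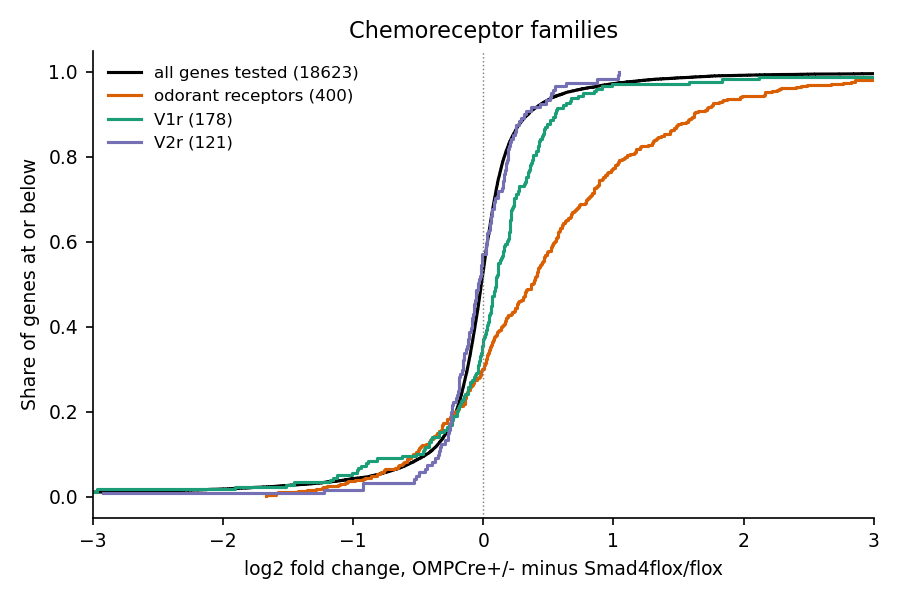
Cumulative share of genes (vertical axis) at or below each log2 difference, OMPCre+/- minus Smad4flox/flox (horizontal axis, shown from -3 to 3), for all 18623 genes tested, 400 odorant receptor, 178 V1r and 121 V2r genes. The odorant receptor curve lies to the right of the others above 0, with a median of 0.37, and the V2r curve follows that of all genes. The median was 0.14 among the 171 odorant receptor genes with at least 10 counts in every library.

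Of 18 vomeronasal transduction genes tested, 15 had a higher mean (83.3%, against 47% of all genes) and 1 (Pirt, 0.29, adjusted p 0.83 in edgeR) had an unadjusted p under 0.05, with a list median of 0.09. Trpc2 differed by 0.13 (SE 0.16), Gnai2 by 0.02 (SE 0.10) and Gnao1 by 0.02 (SE 0.11). Among 16 genes of apical and basal identity only Pde4a had an unadjusted p under 0.05 (0.27, adjusted p 0.74). Among 23 immature neuron and neurogenesis genes Dcx (0.22) and Neurog1 (0.88) did, and Gap43, a growth cone protein, differed by -0.27 (SE 0.26).

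Unc13c, Tenm2 and Robo2, chosen because they had been measured by qPCR, did not pass the test. Unc13c, a vesicle priming protein, read 4.01, 2.69 and 4.37 CPM in Smad4flox/flox and 3.63, 4.08 and 5.05 CPM in OMPCre+/- (0.20, SE 0.23, adjusted p 0.96 in edgeR). Tenm2, a teneurin of synaptic partner matching, differed by 0.02 (SE 0.14) and Robo2, an axon guidance receptor, by 0.03 (SE 0.11). Unc13c and Tenm2 were above all 6 controls in the cKO, at 10.5 to 15.2 and 111 to 126 CPM.

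In the wider lists few genes had an unadjusted p under 0.05, and none was called in edgeR. Of 38 synapse genes 2 did, both higher, among them Cplx2, a regulator of vesicle release (0.25), with a median of 0.10. Of 48 axon guidance and adhesion genes 2 did, Slit1 (0.53) and Sema3a (0.38), with a median of 0.09. Of 37 SMAD and BMP pathway genes 1 did, the activin receptor Acvr2b (0.50), with a median of 0.09. None of 20 cell cycle genes did. These shares are to be read against 5.84% of all genes. A higher mean was found in 71.1% of the synapse, 64.6% of the axon guidance and adhesion, 64.9% of the SMAD and BMP and 50% of the cell cycle genes, against 47% of all genes.

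Markers of other tissues varied widely within the flox group. All 10 muscle genes had a lower mean in OMPCre+/-, 3 with an unadjusted p under 0.05, with Smad4flox/flox replicate 3 as the single high library. Krt14, a keratin of basal epithelial cells, read 17.1, 97 and 346 CPM in Smad4flox/flox and 30.4, 30 and 13 CPM in OMPCre+/-, and Krt5 read 84.7, 243 and 508 CPM and then 104, 102 and 73.4 CPM. Gland and sustentacular genes, dominated by secreted lipocalins, summed to 119310 to 283016 CPM and 118247 to 191587 CPM. Of 21 respiratory and ciliated epithelium genes 18 had a lower mean (14.3% a higher one, against 47% of all genes), 2 (Krt5 and Krt14) were lower at an unadjusted p under 0.05, and the median was -0.23. These genes summed to 2129 to 4231 CPM and 2007 to 2949 CPM, and immune genes to 4509 to 5332 CPM and 4462 to 5337 CPM. Of 20 endothelial, pericyte and blood genes, 14 glial genes and 28 immune genes none had an unadjusted p under 0.05, with medians of -0.01, 0.02 and -0.13. Of 15 cartilage, bone and fibroblast genes 11 had a higher mean and 1, the bone matrix gene Ibsp, had an unadjusted p under 0.05 (0.49, adjusted p 0.78 in edgeR), with a median of 0.30. Among 22 immediate early and stress genes the heat shock genes Hspa1b (-0.62) and Hspb1 (-0.60) had an unadjusted p under 0.05, and the list summed to 3006 to 3100 CPM in Smad4flox/flox and 2597 to 2850 CPM in OMPCre+/-, without overlap. The part of these tissues in the other results was not tested.

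The position of the genes that differed was described around both engineered loci. Within 5 Mb of Omp none of 107 tested genes was called and 4 (3.74%) had an unadjusted p under 0.05, against 5.84% of all genes, and DESeq2 called 1, Myo7a. Within 20 Mb, 2 of 418 were called in edgeR and 16 in DESeq2, and 7.89% had an unadjusted p under 0.05. Over all genes 0.0752% were called in edgeR and 0.792% in DESeq2. Over chromosome 7 the share was 8.71%, and 4 of the 14 called genes and 34 of the 158 DESeq2 calls lay there, 2.03% of its 1677 tested genes. Chromosome 14 had 3 called genes and 20 DESeq2 calls (2.86% of 699), and the other chromosomes had 0.157% to 1.45%. Around Smad4, 6 of 42 genes within 5 Mb (14.3%) had an unadjusted p under 0.05 and none was called in edgeR. Within 20 Mb of Smad4 13 of 177 (7.34%) did, 1 was called in edgeR (AC129179.3) and 4 in DESeq2, against 0.0752% and 0.792% of all genes. Gnal, described above with the olfactory genes, was among those DESeq2 calls. DESeq2 called 1 of the 42, Slc14a1, a urea transporter, at 17.2, 17.2 and 11.3 CPM in Smad4flox/flox and 5.23, 5.48 and 5.73 CPM in OMPCre+/- (-1.47, SE 0.33, adjusted p 0.42 in edgeR and 0.0014 in DESeq2).

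**Figure D5:**
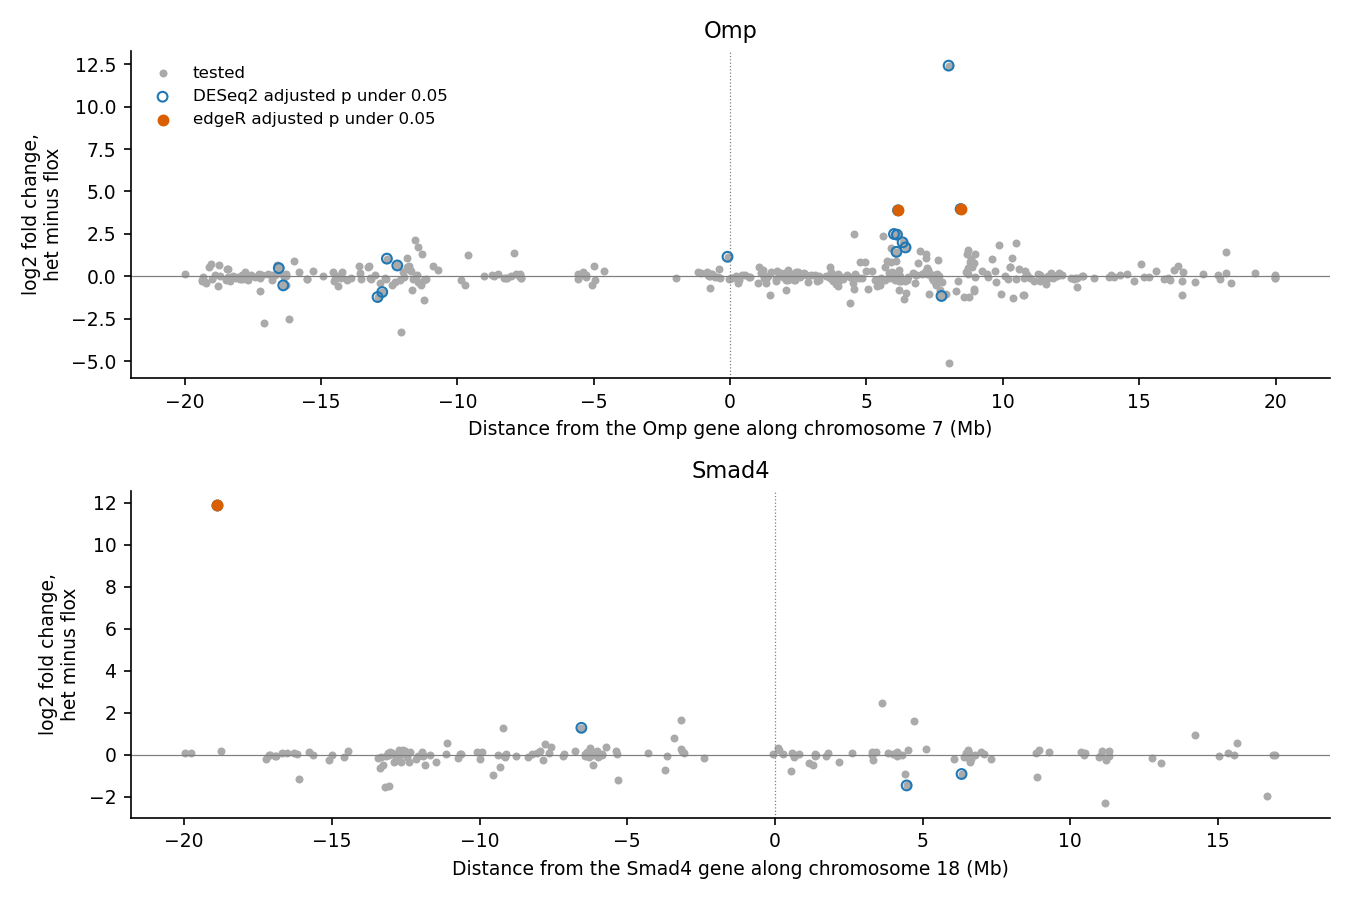
Log2 difference, OMPCre+/- minus Smad4flox/flox (vertical axis), of tested genes against distance in Mb from Omp on chromosome 7 (top) and from Smad4 on chromosome 18 (bottom), within 20 Mb. Orange points passed the adjusted threshold in edgeR and blue circles in DESeq2. Both orange points near Omp lie on the positive side, Trim12a at 6.16 Mb and Gm1966 at 8.45 Mb, and none lies within 5 Mb of it.

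Several of the chromosome 7 genes lay 6.01 to 8.45 Mb from Omp, in a stretch that holds interferon-inducible TRIM and GTPase genes. Beside Trim12a, Gm1966 and Olfm5, it held Trim34a, Trim30d, Trim5 and Gvin1, which were named after their values were seen. Other genes of the same stretch and families differed the other way or little. Gm4070 differed by -1.16 (adjusted p 0.49 in edgeR and 0.0051 in DESeq2), Trim34b by -0.78, Gm8979 by -1.02, Gm18853 by -5.11, and Trim12c and Trim30a by -0.26 each. The groups overlapped for Gm8979, Gm18853 (adjusted p 0.86 in edgeR), Trim12c and Trim30a, so no difference was shown for these. Trim34a read 2.28, 4.24 and 2.04 CPM in Smad4flox/flox and 8.25, 7.25 and 7.77 CPM in OMPCre+/- (1.44, SE 0.30, adjusted p 0.35 in edgeR and 0.0014 in DESeq2). Trim30d read 0.542 to 1.16 and then 1.69 to 4.15 CPM, Trim5 differed by 2.45 (SE 0.65), and the cKO stood with Smad4flox/flox for all 3. Gvin1, a very large interferon-inducible GTPase, read 3.43, 8.62 and 20.6 CPM in OMPCre+/- and 0 in Smad4flox/flox, at least 227-fold higher against the floor, and 1.84, 0 and 0 CPM in the cKO. It missed the threshold in edgeR (adjusted p 0.6) and passed it in DESeq2 (adjusted p 3.9e-11). In the AP-2e line Gvin1 was on in AP-2eCre+/- (10.9 to 14.3 CPM) and in the same flox library that had Trim12a (9 CPM), and 0 in the other 2.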

How the data were processed

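Whole VNOs were profiled by stranded polyA+ mRNA-seq with single reads. The authors quantified them with Salmon 0.14.0 against mouse transcripts, and the deposited values are an estimated count per transcript, not normalized for library size, and a TPM value, used only in an alternative. The authors' own tests used DESeq2 1.22.2. The study's methods name a coding-sequence assembly, whereas transcript lengths in the files are those of whole transcripts in GENCODE vM21 (GRCm38).

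Estimated counts were summed per gene with that annotation, rounded to whole numbers and tested with edgeR 4.0.16 (quasi-likelihood, TMM, filterByExpr, R 4.3.3) in 1 fit of the 9 OMP-line libraries, with Benjamini-Hochberg adjustment over 18623 genes and a threshold of 0.05. All tests were two-sided. SE is the absolute log2 fold change divided by the square root of F. The AP-2e line was fitted alone, and the difference between lines over the 18 libraries as an interaction. A heterozygote of the AP-2e line with conflicting labels was not used, and 1 AP-2e flox library labelled female had 2001 counts of the Y-linked gene Ddx3y. Replicates are separate libraries of a group, and p-values measure their spread. Counting intervals and floors cover counting error only. On simulated counts 48% of 100 genes changed by 1 and 81% of 100 changed by 2 on the log2 scale were recovered, with 5 false calls among 18276 genes. Copies were found with blastn 2.17.0.

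Genes named were those called, the next by unadjusted p up to 24 in all, Omp, Smad4, their 6 nearest tested genes each, genes measured by qPCR, and the lowest p of each of 17 lists. Some results of these rules are not reported here. Parent genes of pseudogenes, single receptor genes and other genes outside that rule were named after their values were seen. The members and lists were chosen with earlier results of these data known. Alternatives were DESeq2, its size factors, 2 filters on low counts, fewer or more libraries, the library series (the form of the animals' names) as a covariate, the numbered series alone, a replicate block, length-scaled TPM and each library left out.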

Additional observations from a re-analysis of the deposited data

Results flagged for a closer look

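5 genes differed between the lines by the test of the difference itself (edgeR's interaction, adjusted p under 0.05, 0.0257% of 19465 genes tested). Rps15a-ps8, at -7.07, and Gm10167, at -6.85, were lost in OMPCre+/- and not in AP-2eCre+/-, as described above. The other 3 were lower in AP-2eCre+/- and not called in OMPCre+/-. Vcp-rs, a pseudogene on chromosome X, differed by 7.24, with 9173, 7599 and 10783 counts in OMPCre+/- and 101, 15 and 76 in AP-2eCre+/-, against 4405 to 10252 in the AP-2e flox libraries. Gm6685 had 111, 111 and 173 counts in OMPCre+/- and none in AP-2eCre+/-, so its fitted difference, 9.69, depends on the prior count and is no measure of size. Gm10320 differed by 5.35, with 494, 425 and 299 counts in OMPCre+/- and 14, 5 and 11 in AP-2eCre+/-.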

How the results depend on the processing

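The 14 genes called kept their sign in every alternative in which they were tested, and Rps15a-ps8, Gdpd3 and Wdfy1 also kept their call. The counts moved more. Called genes higher and lower in OMPCre+/- numbered 93 and 65 with DESeq2, 2 and 2 with at least 10 counts in every library, 4 and 4 with the 6 libraries alone (5 of the 14 stayed called), 5 and 4 with 18 libraries, 9 and 10 with the library series as a covariate, and 10 and 16 in the numbered series. Leaving out 1 library gave 2 to 12 higher and 3 to 8 lower. Without flox replicate 2 there were 3 and 3, and 4 of the 14 stayed called. Without het replicates 1, 2 and 3 there were 3, 3 and 2 higher. The AP-2e count was 127 with DESeq2, 14 with at least 1 count in total, 3 with the replicate block and 3 to 21 without 1 library (3 without flox replicate 1, 21 without het replicate 1, 5 without the library with Ddx3y counts). The count for the difference between lines was 76 with DESeq2, 1 with at least 10 counts in every library and 5 to 8 without 1 library. For Omp, DESeq2 gave -0.75, now past the threshold, and leaving out 1 library gave -0.92 to -0.59. Tenm2 became -0.052 and Robo2 -0.13 with length-scaled TPM, Robo2 -1.9e-05 in the numbered series, and leaving out 1 library gave -0.087 to 0.22 for Tenm2 and -0.052 to 0.10 for Robo2. With the replicate number as a block 1 gene was higher and 6 lower, and 4 of the 14 stayed called. Same-numbered OMPCre+/- and flox libraries correlated at 0.032 to 0.25, and differently numbered ones at -0.24 to 0.079. The main fit did not pair libraries by number, although 5 of 6 libraries correlated best with their own number. Genes at an unadjusted p under 0.05 numbered 1088 in the main fit, 1748 with the replicate block and 1851 with the library series as a covariate. The causes were not tested. At the depth of these libraries a gene with no count in a group is bounded only by the floor of 3 counts.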

Other observations

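Gm2223, a processed pseudogene on chromosome X, and Nnt, which encodes a mitochondrial transhydrogenase, were singled out after their values were seen. Gm2223 read 12.5, 12.7 and 14.5 CPM in OMPCre+/- and 0 in all 3 Smad4flox/flox libraries, with 4.45, 0 and 7.42 CPM in the cKO. Its adjusted p was 0.49 in edgeR and 0.00029 in DESeq2. Nnt is annotated under 2 gene identifiers on chromosome 13, and reads may be divided between them. The first read 3.26, 6.26 and 4.3 CPM in Smad4flox/flox and 0.924, 1.4 and 0.307 CPM in OMPCre+/-, and 3.48, 2.94 and 7.15 CPM in the cKO. The second read 14.4, 12.5 and 11.7 CPM and then 16.2, 14.7 and 16.4 CPM. Ifi44l, an interferon-induced gene also singled out afterwards, had 0, 0 and 1 counts in Smad4flox/flox, 203, 3 and 299 in OMPCre+/- and 258, 270 and 279 in the cKO (adjusted p 0.32 in edgeR).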
